A study of Homo sapiens with 4 samples.

Results

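Protein phosphatase 1 (PP1) is a serine/threonine phosphatase built from a catalytic subunit and a regulatory subunit. The genes described here are the PP1 catalytic genes PPP1CA, PPP1CB and PPP1CC and every protein-coding gene whose GENCODE symbol starts with PPP1R. This rule gave 45 genes among the 60308 gene identifiers of each table, and all 45 were found in the tables by their Ensembl number. The family was picked because PPP1R14B had already been seen to differ in these libraries, so the values below describe the genes and no p-value is given for any of them.

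The catalytic subunits have little substrate choice of their own. Regulatory subunits bind them, mostly through short docking motifs, and carry them to myosin, glycogen, chromatin, the translation machinery or the cytoskeleton, while a smaller group of proteins blocks the active site. PPP1R14 proteins belong to that second group: when phosphorylated, for example by protein kinase C, they inhibit PP1 and the myosin phosphatase that contains it.

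The RNA came from VCaP, a prostate cancer line of human origin with a TMPRSS2-ERG gene fusion, and was read by RNA-seq. Cells were transfected with an siRNA against ZBTB7A (siZBTB7A) or with a non-targeting siRNA (siNTC), both in serum-containing medium; the sources used here do not give the time after transfection. ZBTB7A encodes a zinc finger transcriptional repressor, and the comparison asks which transcripts differ when it is targeted. Each group has 2 count tables (replicates 1 and 2) made with a stranded total RNA kit, and the labels do not say that they came from separate cultures.

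The siZBTB7A tables held 11381794 and 11768355 reads, of which 5556061 and 5745862 were counted in genes, against 11675008 and 12048199 reads with 5737738 and 5927656 in genes for siNTC. The tables of a group differed by no more than sampling noise, with chi-square per degree of freedom of 0.995 over 12645 genes in siZBTB7A and 0.993 over 12762 genes in siNTC, and between 3.50 and 3.64 across groups. They are therefore counted as 1 library per group. The edgeR quasi-likelihood test then compares 2 libraries and not the conditions, and "called" below means a Benjamini-Hochberg adjusted p under 0.05 in that test. Folds are siZBTB7A over siNTC from the summed tables, with exact 95% intervals that cover counting error only. ZBTB7A itself had 70 and 74 reads in siZBTB7A tables and 90 and 115 reads in siNTC tables, a fold of 0.743 (0.597 to 0.924) that was not called. Both of its siZBTB7A tables lay below both siNTC tables, as in 23.4% of tested genes, and the difference in its transcript is modest. All 9 prostate luminal markers were detected, and 11 matched markers of blood, stromal, endothelial and muscle cells together had 42 reads in siZBTB7A and 48 reads in siNTC, with 5 of them at 0 in every table. In bulk RNA, fewer cells that express a gene and less RNA per cell cannot be told apart.

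The 4 PPP1R14 paralogs are different enough in sequence for their reads to be separated, which the results on PPP1R14B depend on. The stretches below are 60 bases of each coding sequence, taken from the aligned GENCODE 29 transcripts (build GRCh38) at the same place of the alignment, with the 24 positions that are identical in all 4 genes in capitals.
PPP1R14B: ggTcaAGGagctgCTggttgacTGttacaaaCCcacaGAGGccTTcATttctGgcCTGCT
PPP1R14A: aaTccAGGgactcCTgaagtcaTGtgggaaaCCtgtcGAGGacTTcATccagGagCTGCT
PPP1R14C: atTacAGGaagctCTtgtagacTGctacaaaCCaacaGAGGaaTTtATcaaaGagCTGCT
PPP1R14D: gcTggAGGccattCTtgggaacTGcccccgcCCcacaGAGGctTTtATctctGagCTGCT

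Over the aligned coding sequence, PPP1R14B was 58.6% identical to PPP1R14A, 65.3% to PPP1R14C and 50.5% to PPP1R14D, and its longest identical run with any of them was 20 bases. None of the 50-base windows of PPP1R14A, PPP1R14C or PPP1R14D occurred in another annotated transcript. A processed copy on chromosome 4, PPP1R14BP3, is far closer: it was 98.9% identical to PPP1R14B over 444 bases, with a run of 205 identical bases. The same stretch of the copy is shown in lower case, with the base that differs from PPP1R14B in capitals.
PPP1R14BP3: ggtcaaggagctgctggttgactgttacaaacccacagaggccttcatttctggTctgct

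Of the 933 windows of 50 bases in the longest PPP1R14B transcript, 22.5% also occurred in other genes, most often PPP1R14BP3, LIMK2 and PPP1R14BP2. In this layout of STAR gene counts, reads that map to several places are not counted, so PPP1R14B is undercounted by an unknown share in both libraries. Multi-mapping reads made up 22.3% and 22.2% of all reads in siZBTB7A tables, against 24.5% and 24.4% in siNTC tables. Reads that met no annotated exon on the counted strand made up 23.1% and 23.2% in siZBTB7A tables, against 20.6% in each siNTC table. The part of these library differences in the PPP1R14B value was not tested.

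PPP1R14B, on chromosome 11, was the only member called higher in the siZBTB7A library, and it had the highest level of all members per kilobase of exon. It had 2161 and 2240 reads in siZBTB7A tables, against 1670 and 1687 reads in siNTC tables. Expressed as CPM, reads per 1000000 TMM-adjusted gene reads, that was 395 and 396 CPM in siZBTB7A tables, against 289 and 282 CPM in siNTC tables. Both siZBTB7A tables lay above both siNTC tables, as was so for 23.5% of tested genes. The fold was 1.39 (1.33 to 1.45). Of all 12848 tested genes 2.25% were called higher, and 4.97% were called in either direction.

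The other PPP1R14 genes were at or near 0. PPP1R14A, the smooth muscle inhibitor of myosin phosphatase, had 0 reads in every table, which allows up to 0.27 CPM in the siZBTB7A library and 0.255 CPM in the siNTC library at 3 counts. PPP1R14C had 2 and 1 reads in siZBTB7A tables and 1 and 2 reads in siNTC tables. PPP1R14D had 0 and 1 reads in siZBTB7A tables and 1 and 0 reads in siNTC tables. PPP1R14B thus held 4401 of the 4405 PPP1R14 reads in siZBTB7A and 3357 of 3361 in siNTC. The close copy PPP1R14BP3 had 70 and 97 reads in siZBTB7A tables and 80 and 87 reads in siNTC tables, a fold of 1.06 (0.849 to 1.32), and the ranges overlap. PPP1R14BP2 had 1 read in each siZBTB7A table and 0 in the siNTC tables, and PPP1R14BP5 had 0 in all tables.

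**Figure D1:**
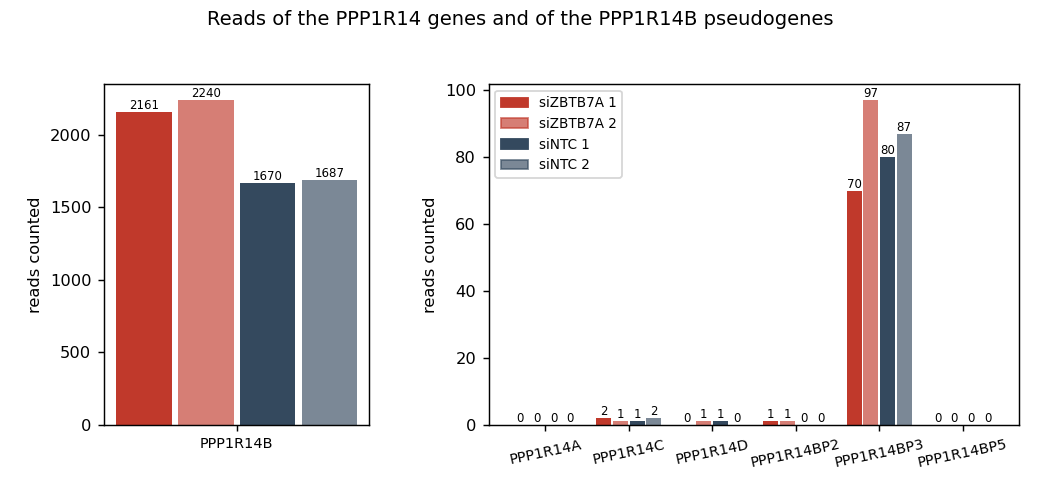
Reads counted per table (vertical axes, 2 different scales) for PPP1R14B on the left and for its 3 paralogs and 3 pseudogenes on the right, with siZBTB7A tables in red and siNTC tables in blue. PPP1R14B stands at 2161 and 2240 reads in siZBTB7A tables against 1670 and 1687 in siNTC tables, while no paralog exceeds 2 reads in any table.

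Between genes, levels were compared per kilobase of exon. PPP1R14B was first of the 45 genes in the siNTC library, at 239 CPM per kilobase in siZBTB7A and 172 CPM per kilobase in siNTC, and it kept that place when the longest transcript was used as the length. The catalytic gene PPP1CA came next at 122 CPM per kilobase in both libraries. PPP1CC followed at 39.2 CPM per kilobase in siZBTB7A and 37.3 in siNTC, and PPP1CB at 29.9 in siZBTB7A and 30.9 in siNTC. The 3 catalytic genes did not change places in any table. Set against the sum of the catalytic genes per kilobase, PPP1R14B stood at 125% in siZBTB7A and 90.6% in siNTC. After them came PPP1R35, PPP1R15B, PPP1R8, PPP1R10 and PPP1R11, between 15.6 and 19.4 CPM per kilobase in siNTC, with table ranges that overlap between several neighbours. The lowest tested members were PPP1R3G, at 0.257 CPM per kilobase in siZBTB7A and 0.5196 in siNTC, and PPP1R18, at 0.489 in siZBTB7A and 0.444 in siNTC.

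**Figure D2:**
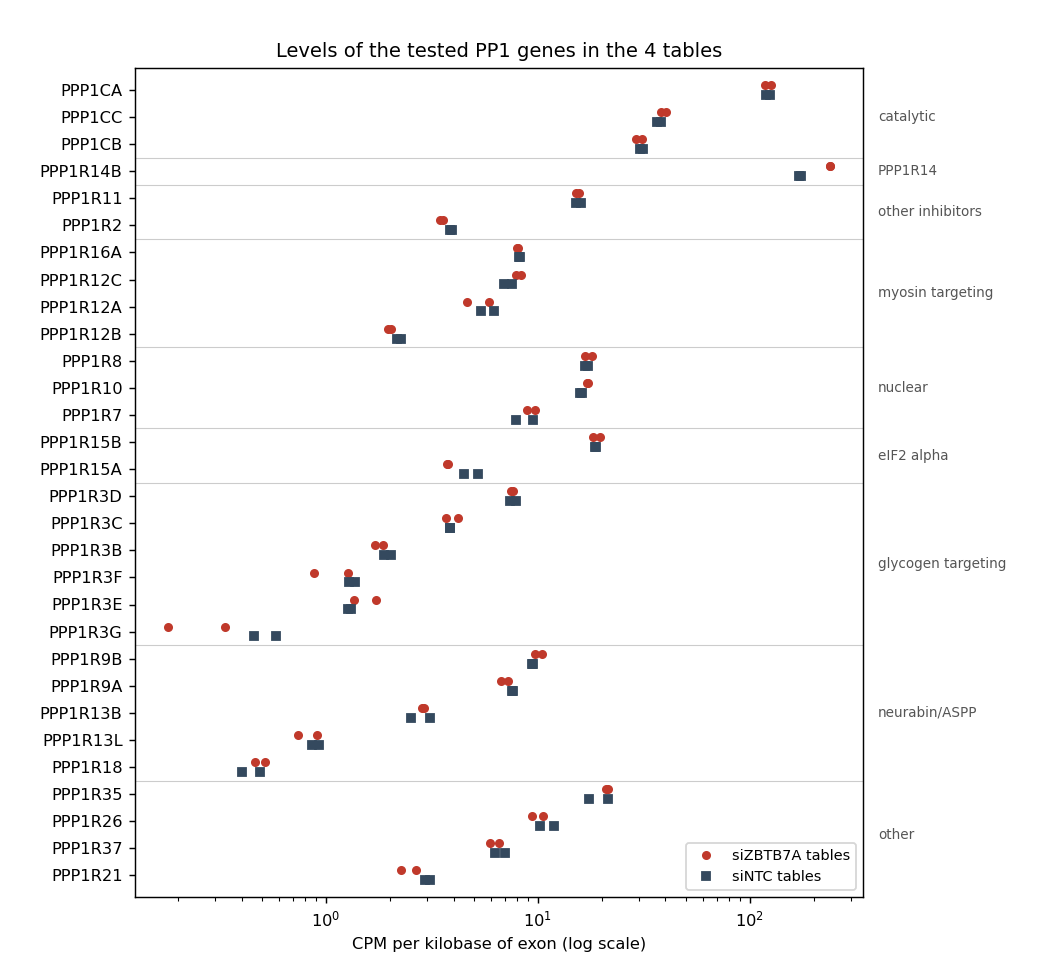
CPM per kilobase of exon on a log axis for the 30 tested genes, grouped by role, with 1 point per table (siZBTB7A red circles, siNTC blue squares). PPP1R14B is the highest row and the siZBTB7A points lie apart from the siNTC points there, while most other rows overlap or nearly touch.

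Of the 45 members, 30 had enough reads to be tested. Another 8 had 0 reads in every table: PPP1R14A, PPP1R17, PPP1R27, PPP1R2B, PPP1R2C, PPP1R36, PPP1R3A and PPP1R42. The remaining 7 (PPP1R14C, PPP1R14D, PPP1R16B, PPP1R1A, PPP1R1B, PPP1R1C and PPP1R32) had between 0 and 10 summed reads in siZBTB7A and between 1 and 9 in siNTC. Apart from PPP1R14B, no member was called in either direction by edgeR, and 2.72% of tested genes were called lower. DESeq2 also called PPP1R14B and did not call 3 others, but it gave no adjusted p for the remaining 26 tested members. At an unadjusted p under 0.05, 2 members were higher (PPP1R12C and PPP1R14B, with 9.02% of tested genes) and 2 were lower (PPP1R15A and PPP1R3G, with 8.9% of tested genes). The member nearest the call threshold on its far side was PPP1R3G, with a fold of 0.494. The median fold of the 30 tested members was 0.9895, against 1.001 over all tested genes. A fold over 1.2 was found upward in 1 member (PPP1R14B, with 10.4% of tested genes) and downward in 4 (PPP1R15A, PPP1R21, PPP1R3F and PPP1R3G, with 9.87% of tested genes). A fold above 1 was found in 13 of the 30, and in 50.2% of tested genes.

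Among the 17 members with a mean of at least 30 CPM, the 16 other than PPP1R14B had folds between 0.898 and 1.11, with 9 below 1 and 7 above it. Summed over all members, the family had 2078 CPM in siZBTB7A and 1975 CPM in siNTC, a fold of 1.05 (1.03 to 1.07). Without PPP1R14B the sums were 1682 CPM in siZBTB7A and 1690.0 CPM in siNTC, a fold of 0.995 (0.976 to 1.015). PPP1R14B supplied 19.1% of the family's reads in siZBTB7A and 14.4% in siNTC.

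**Figure D3:**
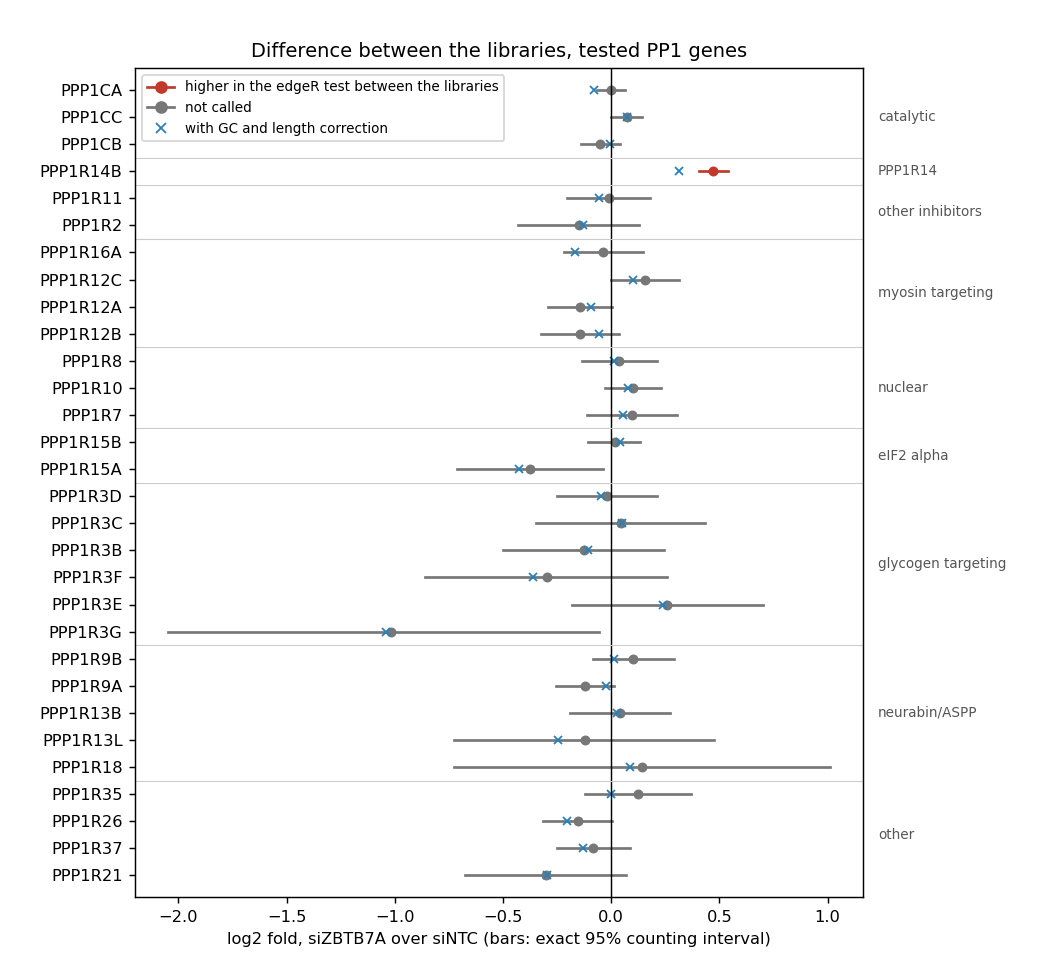
Log2 fold of siZBTB7A over siNTC for the 30 tested genes, grouped by role, with exact 95% counting intervals as bars and the value after GC and length correction as a blue cross. PPP1R14B lies at 0.47, the widest bar belongs to PPP1R3G at -1.02, and most other intervals include 0.

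The catalytic genes had nearly equal levels in the libraries. PPP1CA had 340.5 and 321 CPM in siZBTB7A tables and 323 and 339 CPM in siNTC tables, a fold of 0.999 (0.955 to 1.05). PPP1CB had 178 and 166.5 CPM in siZBTB7A tables and 176 and 181 CPM in siNTC tables, a fold of 0.966 (0.907 to 1.03). PPP1CC had 263 and 278 CPM in siZBTB7A tables and 265 and 251 CPM in siNTC tables, a fold of 1.05 (0.999 to 1.11). The table ranges of PPP1CA, PPP1CB and PPP1CC overlapped between groups, and the summed catalytic level was 773 CPM in siZBTB7A and 767 CPM in siNTC, a fold of 1.01 (0.979 to 1.04). Per kilobase, PPP1CA made up 63.8% of the catalytic sum in siZBTB7A and 64.1% in siNTC.

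The 3 catalytic genes are closer to each other than the PPP1R14 genes are, with coding identities between 73.2% and 74.2%, yet the longest run shared by a pair was 23 bases. The stretches below are 60 coding bases of each, in which the 48 positions identical in all 3 are in capitals.
PPP1CA: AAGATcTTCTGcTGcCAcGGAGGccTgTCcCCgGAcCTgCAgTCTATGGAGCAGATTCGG
PPP1CB: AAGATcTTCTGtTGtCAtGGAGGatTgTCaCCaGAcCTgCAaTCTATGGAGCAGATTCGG
PPP1CC: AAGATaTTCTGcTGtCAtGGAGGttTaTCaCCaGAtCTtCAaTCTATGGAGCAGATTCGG

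PPP1CB shared 8.55% of its 50-base windows with SPDYA, which overlaps it on the same strand, so part of its reads could not be assigned.

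The myosin phosphatase targeting subunits, the complexes on which PPP1R14 proteins are known to act, had small differences on both sides of 1. PPP1R12A, the widely expressed targeting subunit, had 70.2 and 55.4 CPM in siZBTB7A tables and 74.5 and 64.2 CPM in siNTC tables, a fold of 0.905 (0.817 to 1.003). Its tables overlap, and the value moved to 0.7999 without siZBTB7A replicate 1 and to 1.01 without siZBTB7A replicate 2. PPP1R12B, known mainly from striated muscle, had 41.5 and 42.8 CPM in siZBTB7A tables and 47.5 and 45.8 CPM in siNTC tables, a fold of 0.904 (0.798 to 1.024). PPP1R12C, the third targeting subunit of that group, had 60.7 and 64 CPM in siZBTB7A tables and 53.8 and 58.2 CPM in siNTC tables. Its fold was 1.11, not called, with an interval from just above 1 to 1.24, and 8.54% of tested genes had an interval above 1. PPP1R16A, a membrane-anchored relative, had 43.2 and 43.7 CPM in siZBTB7A tables and 44.3 and 44.8 CPM in siNTC tables, a fold of 0.975 (0.860 to 1.11). PPP1R16B had 9 summed reads in siZBTB7A and 2 in siNTC, a ratio of 4.76 whose interval runs from 0.986 to 45.3. The 5 genes summed to 211.5 CPM in siZBTB7A and 217 CPM in siNTC, a fold of 0.977 (0.923 to 1.03).

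The 3 nuclear subunits had folds slightly above 1, each with an interval that includes 1. PPP1R10, which holds PP1 on chromatin and in transcription termination complexes, had 89.3 and 90.1 CPM in siZBTB7A tables and 82.4 and 84.6 CPM in siNTC tables, a fold of 1.07 (0.982 to 1.17). PPP1R7, a leucine-rich repeat partner needed for making active PP1, had 33.6 and 36.6 CPM in siZBTB7A tables and 29.7 and 36 CPM in siNTC tables, a fold of 1.07 (0.927 to 1.23). PPP1R8, a nuclear inhibitor found with splicing factors, had 47 and 51 CPM in siZBTB7A tables and 48.6 and 47 CPM in siNTC tables, a fold of 1.03 (0.911 to 1.16). The tables of PPP1R10 lay apart, siZBTB7A above siNTC, as in 23.5% of tested genes, and those of PPP1R7 and PPP1R8 overlapped. Their sum gave 174 CPM in siZBTB7A and 164 CPM in siNTC, a fold of 1.06 (0.994 to 1.13).

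The subunits that send PP1 to the translation factor eIF2 alpha differed from each other in level, and the difference between their folds was not tested. PPP1R15A, the stress-inducible subunit, had 64 and 65 reads in siZBTB7A tables and 80 and 97 reads in siNTC tables, with no overlap. Its fold was 0.771 (0.610 to 0.973), not called, and 8.52% of tested genes had an interval below 1. Of tested genes, 23.4% had both siZBTB7A tables below both siNTC tables. PPP1R15B, the constitutive subunit, was the more abundant per kilobase, at 19 CPM per kilobase in siZBTB7A and 18.8 in siNTC, where PPP1R15A had 3.75 in siZBTB7A and 4.86 in siNTC. It had 103 and 95.4 CPM in siZBTB7A tables and 98.7 and 97.5 CPM in siNTC tables, a fold of 1.01 (0.9296 to 1.10). Kinases and targets of the same pathway gave no call in edgeR. At an unadjusted p under 0.05 there, 2 were lower (with 8.9% of tested genes) and 0 higher (with 9.02%). DESeq2 called none and gave no adjusted p for 9 of them. Of these 10 genes, all tested, 4 had a fold above 1, and the median was 0.961 against 1.001 over all tested genes. The transcription factor ATF4 had 207 and 193 CPM in siZBTB7A tables and 195 and 190.3 CPM in siNTC tables.

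Glycogen-targeting subunits were low, and the largest fold among the tested members came from 1 of them at the fewest reads. PPP1R3G had 9 and 5 reads in siZBTB7A tables and 13 and 17 reads in siNTC tables, and its fold of 0.494 had an interval from 0.242 to 0.961. PPP1R3D, the highest of them per kilobase, had 27.6 and 27.1 CPM in siZBTB7A tables and 26.8 and 28.6 CPM in siNTC tables, a fold of 0.987 (0.841 to 1.16). PPP1R3B, PPP1R3C, PPP1R3E and PPP1R3F ranged in fold between 0.814 and 1.197, each with an interval that includes 1, and the muscle subunit PPP1R3A had 0 reads. The 7 genes summed to 62 CPM in siZBTB7A and 63.9 CPM in siNTC, a fold of 0.9696 (0.873 to 1.08). Of 18 glycogen enzymes, 15 were tested. None was called by edgeR, and 0 reached an unadjusted p under 0.05 there, where 9.02% of tested genes were higher and 8.9% lower. DESeq2 gave no adjusted p for any of the 15 enzymes, and their median fold was 1.024.

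Among other inhibitors, PPP1R11, a small PP1 inhibitor, had 38.6 and 39.8 CPM in siZBTB7A tables and 38.4 and 40.6 CPM in siNTC tables, a fold of 0.992 (0.869 to 1.13). PPP1R2, an inhibitor that also acts as a chaperone of the catalytic subunit, had 17.7 and 18.2 CPM in siZBTB7A tables and 20.2 and 19.7 CPM in siNTC tables, a fold of 0.901 (0.742 to 1.09). PPP1R2 shared 12.6% of its 50-base windows with other genes, most often PPP1R2B and the pseudogenes PPP1R2P1 and PPP1R2P6, and PPP1R2B was at 0. PPP1R1A, PPP1R1B and PPP1R1C, inhibitors regulated by protein kinase A or related to those that are, had at most 10 summed reads in siZBTB7A and 9 in siNTC.

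The actin-binding scaffolds PPP1R9A and PPP1R9B, neurabin and spinophilin, had folds on opposite sides of 1. PPP1R9A had 74.6 and 80.7 CPM in siZBTB7A tables and 83.8 and 85.3 CPM in siNTC tables, a fold of 0.919 (0.838 to 1.01). PPP1R9B had 41.9 and 44.9 CPM in siZBTB7A tables and 40.6 and 40.3 CPM in siNTC tables, a fold of 1.07 (0.944 to 1.22). For neither gene did the groups' tables overlap. Of tested genes, 23.5% had both siZBTB7A tables above both siNTC tables and 23.4% had both below, and among the members 5 did the first and 9 the second. The p53-binding relatives had folds of 1.03 (PPP1R13B) and 0.919 (PPP1R13L), and the actin-associated PPP1R18 had a fold of 1.10 on 25 reads in siZBTB7A and 24 in siNTC. Of the members with less settled roles, PPP1R26 had 55.6 and 49.4 CPM in siZBTB7A tables and 53.9 and 62.7 CPM in siNTC tables, a fold of 0.898 (0.803 to 1.004). PPP1R37, a leucine-rich repeat inhibitor, had 46.4 and 51.5 CPM in siZBTB7A tables and 49.3 and 54.5 CPM in siNTC tables, a fold of 0.944 (0.839 to 1.06). PPP1R35, a centrosomal protein, had a fold of 1.09 (0.919 to 1.29) and PPP1R21, found on endosomes, 0.812 (0.627 to 1.05).

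The GC content of transcripts moved with the folds of all genes, and PPP1R14B has the highest GC content of the 45 members, 68% in its longest transcript of 982 bases. Among the 5461 tested genes with at least 30 CPM, the median fold was 1.05 in the 655 genes with a GC content of 60% or more and 0.965 in the 991 genes under 40%. In the 86 genes within 2 GC points of PPP1R14B, itself included, the median was 1.07 (quartiles 1.01 and 1.14). Of these, 2 had a larger fold than PPP1R14B. Of the 36 that were also within 2-fold of its length, again itself included, none had a larger fold, at a median of 1.03. PPP1R14B was picked for its difference, and 5 of all 5461 genes had a larger fold, so these ranks are not a test. After correction of the fit for GC content and length by a spline, the PPP1R14B fold was 1.24 and it was still called higher. The 6 other well-counted members with a GC content of 60% or more (PPP1CA, PPP1R12C, PPP1R16A, PPP1R26, PPP1R37 and PPP1R9B) had a median fold of 0.987. What GC content contributes to the PPP1R14B difference beyond this correction was not tested.

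**Figure D4:**
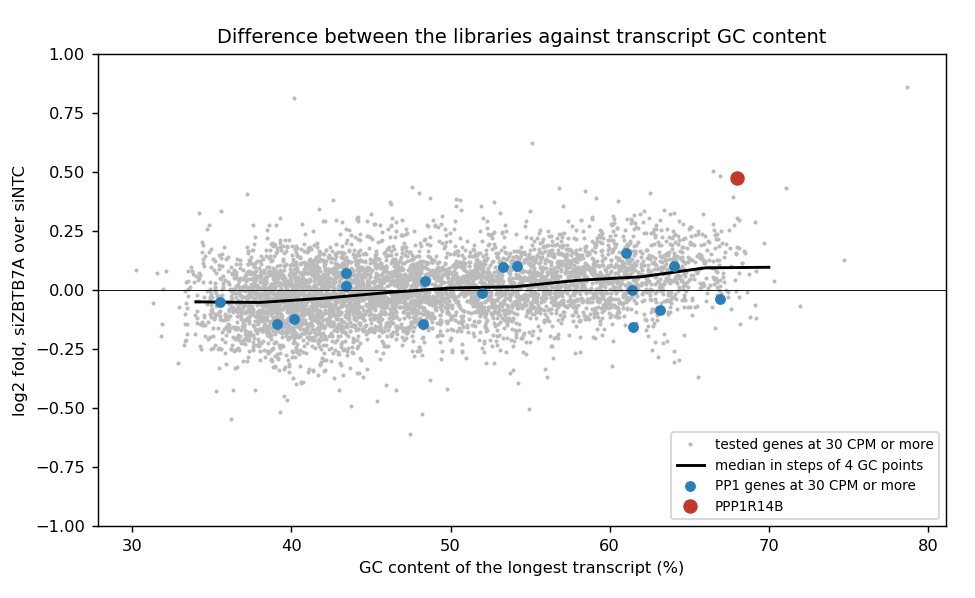
Log2 fold of siZBTB7A over siNTC against the GC content of the longest transcript (%) for 5457 tested genes with at least 30 CPM, with the running median in black, the PP1 genes in blue and PPP1R14B in red. The median climbs with GC content, and PPP1R14B lies at 0.47, above nearly all genes of like GC content.

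Partners of PP1 that carry other symbols, such as KNL1 at kinetochores and the PHACTR actin regulators, formed a list of 26 genes. Of 26 such genes 24 were tested, with 1 called higher, 3 called lower and a median fold of 0.966. Over all tested genes 2.25% were called higher and 2.72% lower, and the median fold was 1.001. RRP1B, a nucleolar partner, had 120 and 128 CPM in siZBTB7A tables and 102.5 and 111 CPM in siNTC tables, a fold of 1.16 (1.08 to 1.26). The genes called lower were CSRNP3 (fold 0.726, 0.622 to 0.848), RIF1, which brings PP1 to replication origins (0.873, 0.824 to 0.925), and MKI67, a mitotic chromosome surface protein (0.895, 0.837 to 0.958). With the GC and length correction CSRNP3 stood at 0.788, RIF1 at 0.958 and MKI67 at 0.945 and none of these 3 was called, while RRP1B remained called at 1.16. Leaving out a single table ended the call of MKI67 (0.933 without siNTC replicate 1, 0.8937 without siZBTB7A replicate 1 and 0.897 without siZBTB7A replicate 2), of RRP1B (1.12 without siNTC replicate 1, 1.13 without siZBTB7A replicate 2) and of CSRNP3 (0.780 without siZBTB7A replicate 2). In DESeq2, RIF1 (0.873) and MKI67 (0.8944) were not called, and CSRNP3 (0.726) and RRP1B (1.165) had no adjusted p.

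In the pathway that sets myosin light chain phosphorylation, 18 of 19 genes were tested, 1 was called lower and 0 higher, where 2.72% of all tested genes were called lower and 2.25% higher, and the median fold was 0.982. The gene called was ROCK2, a kinase that phosphorylates PPP1R12A, with 285 and 295 reads in siZBTB7A tables and 343 and 424 reads in siNTC tables. Its fold was 0.8002 (0.717 to 0.893), and it was no longer called with the GC and length correction (0.848) or without siNTC replicate 2 (0.880). MYLK, the myosin light chain kinase, had 78 and 61 reads in siZBTB7A tables and 51 and 54 reads in siNTC tables, a fold of 1.401 (1.08 to 1.82) that was not called. MYLK was named after its value was seen, and 8.54% of tested genes had an interval above 1. CDC42BPA, of the same pathway, went the other way at 0.859 (0.760 to 0.97) and was not called either. An interval below 1 was found in 8.52% of tested genes. At an unadjusted p under 0.05 in edgeR, 1 gene of this pathway was higher (with 9.02% of tested genes) and 2 were lower (with 8.9%). Catalytic subunits of the other PPP phosphatases gave no call in edgeR, and DESeq2 called none and gave no adjusted p for 7. Of these, 8 of 10 were tested, and their median fold was 1.01. At an unadjusted p under 0.05 in edgeR, 1 was lower (with 8.9% of tested genes) and 0 higher (with 9.02%).

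**Figure D5:**
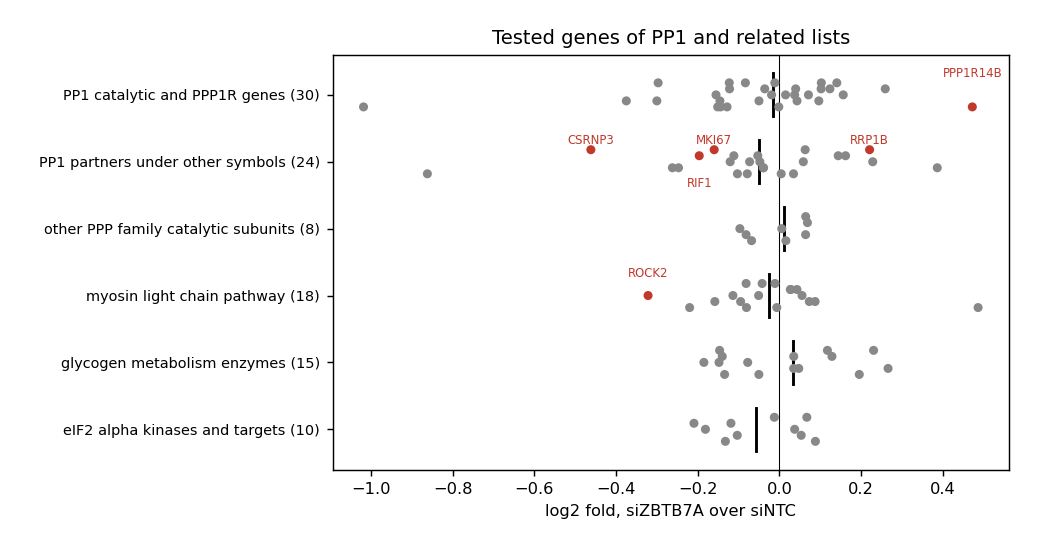
Log2 fold of siZBTB7A over siNTC for each tested gene of the PP1 family and of 5 related lists, with the number of tested genes in brackets, called genes in red and a black bar at each list's median. PPP1R14B is the only called point in its row, and the medians of all rows lie close to 0.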

How the data were processed

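Per the submitters' processing notes, reads were processed with STAR 2.4.2a on hg19 (GRCh37); the release of the annotation they used is not stated in any source here. The authors deposited raw read counts per gene for 4 tables, in the layout of STAR gene counts, and the strand column with 24.9 to 25.5 times more reads than the other was used. Rows that name no gene held 50.8% to 51.2% of reads and were left out; their make-up differed between the groups, as given with PPP1R14B. GENCODE 29, on another build, supplied names, lengths, GC content and sequences, so no coordinates are given; 55698 identifiers were named and 4610 were not. The members and lists were chosen with earlier results of these data known. Genes named were the catalytic and PPP1R14 genes, called members, and tested members with at least 30 CPM or with an interval excluding 1. The members next to the threshold, ZBTB7A and the called genes of the related lists were also named. The members with lower counts were added by role. Some genes of the related lists, MYLK and CDC42BPA among them, were named outside this rule.

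Counts were tested with edgeR 4.0.16 in R 4.3.3 (robust quasi-likelihood test, TMM, filterByExpr, group as the only term, 12848 genes). Alternatives were DESeq2 1.42.0 as a test and as size factors, other filters on low counts, a fit on protein-coding genes alone, unstranded counts, a block for the replicate number, fits without 1 table, and a spline on GC content and length. The scripts were tested on simulated data. Coding sequences were aligned with MAFFT 7.526, and pandas 2.3.3, scipy 1.17.1 and numpy 2.4.6 ran under Python 3.11.15. Intervals are Clopper-Pearson at 95%; reads without molecular identifiers are not independent molecules, so intervals and floors cover counting error only.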

Additional observations from a re-analysis of the deposited data

Results flagged for a closer look

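Reads on the strand opposite to PPP1R14B, which no comparison above uses, were more frequent in the siZBTB7A library. There were 28 and 32 such reads in siZBTB7A tables and 16 and 21 in siNTC tables, a ratio of 1.72 (1.12 to 2.66). They made up 1.34% of the reads of both strands at PPP1R14B in siZBTB7A and 1.09% in siNTC. The gene's own strand had a fold of 1.39 (1.33 to 1.45), which lies inside the interval of 1.12 to 2.66. Whether the opposite strand differs beyond the gene's own reads was not tested. No share over all genes was computed for opposite-strand reads.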

How the results depend on the processing

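PPP1R14B was called higher under all 12 alternatives. Its fold was 1.24 with the GC and length correction, lay between 1.372 and 1.40 when 1 table was left out, and was 1.39 with the replicate number as a block. All of these fits re-use the same 2 libraries, in which PPP1R14B had already been seen to differ. Its repeated call is therefore not separate support. No member was called lower except PPP1R12A without siZBTB7A replicate 1, which made 1 member; leaving out the other tables gave 0. Of 216 values for the 18 other tested named members, 213 stayed within the counting interval and 3 did not: PPP1CA at 0.946 with the GC and length correction, and the PPP1R12A values without a siZBTB7A table. The count of all genes called was less stable. Against 639, DESeq2 gave 85 calls, 41 of them higher and 44 lower. With the GC and length correction there were 357, of which 180 were higher, and leaving out 1 table gave 303 to 373. In DESeq2 the folds of CSRNP3 (0.726), ROCK2 (0.8006) and RRP1B (1.165) had no adjusted p, and RIF1 (0.873) and MKI67 (0.8944) were not called. The paired analysis, with the replicate number as a block, called 654 genes. Deviations of same-numbered tables had a correlation of -0.0151 over 5460 genes. Tables of a group differed by no more than sampling noise, so this correlation cannot show whether same-numbered tables shared a culture or preparation. With 1 library per group, no value here measures the spread between cultures. Depth limits the low members most: the interval of PPP1R18 runs from 0.604 to 2.02, which includes the PPP1R14B fold.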

Other observations

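PPP1R27, a dysferlin-interacting PP1 regulator, had reads only on the strand opposite to its own, with 22 in siZBTB7A and 24 in siNTC. At PPP1R3D the opposite strand held 29 reads in siZBTB7A and 38 in siNTC, which is 8.71% of the reads on both strands in siZBTB7A and 10.4% in siNTC. PPP1R32 shared 39% of its 50-base windows with AP003108.2, which overlaps it, and had 4 summed reads in each library.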
